A study of Mus musculus with 35 samples.

Results

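Replication-dependent histone genes are the clustered genes that encode the bulk of the linker histone H1 and of the core histones H2A, H2B, H3 and H4. They were taken from the deposited RNA table by name, as every gene whose name starts with Hist1, Hist2, Hist3 or Hist4 followed by a histone class. The rule found 67 of the 11982 gene names in the table. By class these were 5 H1, 18 H2A, 19 H2B, 12 H3 and 13 H4 genes, and by cluster 53 Hist1, 10 Hist2, 3 Hist3 and 1 Hist4 gene. None of the 67 was listed at 0 in any library, and all 67 passed the filter on low values.

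Cells make these histones mainly while DNA is copied, when new nucleosomes are assembled behind the replication fork. Most of the mRNAs end in a conserved stem-loop instead of a poly(A) tail, and this end is made by a dedicated 3' processing machinery that includes the stem-loop binding protein. A nucleosome holds the core histones H2A, H2B, H3 and H4, and H1 binds the linker DNA outside it. H2A and H2B genes often lie head to head and share the DNA between them as promoter. In a dividing progenitor population the transcripts of these genes are among the most abundant mRNAs, although selection for poly(A) captures only a part of them.

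The study knocked out JMJD1B, a histone demethylase encoded by Kdm3b, by a gene trap, and RNA was sequenced from hematopoietic stem/progenitor cells (HSPCs) of the bone marrow. All mice had the mixed strain background 129P2xC57BL/6J and carried no other named allele or treatment, and the methods give 1 age range for all animals, of both sexes, but not the age or sex behind a library. There were 2 wild-type (WT) and 2 JMJD1B-/- libraries of polyA RNA. The labels do not say whether a library came from 1 mouse or from a pool, so the spread between libraries of 1 genotype may in part be technical. The 31 chromatin immunoprecipitation samples of the series were not used here. In bulk RNA a change in the make-up of the HSPC population, for example fewer cells of a type, and a change in RNA per cell cannot be told apart.

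Values are RPKM, which are read counts scaled for transcript length and library depth. Depth was estimated from the steps of low values, as 17500000 and 24600000 reads in the WT libraries and 6110000 and 21000000 reads in the JMJD1B-/- libraries, so that JMJD1B-/- replicate 1 was the shallowest. For a transcript of 500 bases, 3 reads equal 0.244 to 0.982 RPKM, which is below the level of every member in every library. Kdm3b had 31.0 and 24.3 RPKM in WT and 4.00 and 4.63 RPKM in JMJD1B-/- HSPCs (log2 fold change -2.65, standard error 0.24, adjusted p = 0.0314 in limma), lower in both libraries labelled as knockout. A fold change here is the difference of log2(RPKM + 0.1), JMJD1B-/- minus WT, and a gene is said to be called when its unadjusted p in limma is under 0.05.

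To show what stands before the starts of these genes, 60 members were matched to a promoter window of RefSeq (GRCm38.p6), which runs from 250 bases before to 50 bases after the transcript start. Short motifs of histone promoters were searched on both strands, and no match overlaps another in the printed windows. CCAAT, the core of a site bound by NF-Y, was found in all 48 windows of H1, H2A, H2B and H3 genes (5, 17, 16 and 10) and in 3 of 12 of H4 genes, against 41.1% of all 27025 promoters. ATTTGCAT, the octamer bound by OCT1, was found in 7 of 17 H2A and 7 of 16 H2B windows and in none of the H1, H3 and H4 windows, against 1.97% of all promoters. Windows of head-to-head H2A and H2B genes can overlap, so a match can count in both classes. GGTCCG, a sequence found in H4 promoters, was in 11 of 12 H4 windows against 9.44% of all promoters. TATAAA, a form of the TATA box, was in 35 of the 60 windows against 15.7% of all. The windows of 4 genes on which the results turn are printed from 5' to 3' in the direction of transcription, with these motifs on either strand in capitals. Hist1h2aa and Hist3h2ba are genes low in WT with large differences, Hist1h2ak is the abundant gene with the largest difference, and Hist1h4f is the gene that differed most between the JMJD1B-/- libraries.
Hist1h2aa, chr13:23934187-23934486, plus strand: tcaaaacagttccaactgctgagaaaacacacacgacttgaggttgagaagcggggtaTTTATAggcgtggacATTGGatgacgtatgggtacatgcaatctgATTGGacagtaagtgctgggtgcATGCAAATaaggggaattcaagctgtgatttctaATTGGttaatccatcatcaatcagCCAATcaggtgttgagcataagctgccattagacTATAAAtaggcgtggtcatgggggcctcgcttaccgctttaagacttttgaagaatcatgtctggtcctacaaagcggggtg
Hist1h2ak, chr13:21753863-21754162, minus strand: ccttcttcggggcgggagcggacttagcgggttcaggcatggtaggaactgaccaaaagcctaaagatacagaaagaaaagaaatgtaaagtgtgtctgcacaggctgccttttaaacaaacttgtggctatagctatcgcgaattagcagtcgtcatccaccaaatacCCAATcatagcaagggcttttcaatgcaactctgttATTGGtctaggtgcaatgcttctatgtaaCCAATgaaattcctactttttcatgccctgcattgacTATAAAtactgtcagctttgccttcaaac
Hist3h2ba, chr11:58948661-58948960, plus strand: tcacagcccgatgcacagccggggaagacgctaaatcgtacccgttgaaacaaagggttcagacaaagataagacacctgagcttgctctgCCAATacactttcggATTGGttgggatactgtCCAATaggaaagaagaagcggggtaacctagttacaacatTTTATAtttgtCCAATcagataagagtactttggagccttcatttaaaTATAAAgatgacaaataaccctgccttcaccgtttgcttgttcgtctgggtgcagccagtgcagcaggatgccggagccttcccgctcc
Hist1h4f, chr13:23551619-23551918, minus strand: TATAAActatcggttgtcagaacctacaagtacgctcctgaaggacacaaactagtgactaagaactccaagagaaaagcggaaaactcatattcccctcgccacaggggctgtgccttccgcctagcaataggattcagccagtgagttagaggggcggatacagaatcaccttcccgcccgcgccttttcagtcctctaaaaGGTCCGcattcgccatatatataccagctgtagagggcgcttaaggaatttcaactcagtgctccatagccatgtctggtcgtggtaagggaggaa
The window of Hist1h2aa holds 4 CCAAT and 2 TATA matches and the octamer once. Hist1h2ak has 3 CCAAT matches and 1 TATA match, Hist3h2ba has 4 and 2, and neither has the octamer. Hist1h4f has no CCAAT match, and holds TATAAA and the H4 motif once each. Its TATAAA match lies at the first bases of the window, far from the transcript start. These matches describe the letters of the windows, and binding to them was not measured here.

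The members were among the genes with the highest level per length. RPKM is scaled by length and these transcripts are short, so a share of summed RPKM is larger than the share of reads behind it. Their RPKM values summed to 17.6% and 16.5% of the table in the WT libraries and to 20.6% and 24.6% in the JMJD1B-/- libraries. Among the genes over 1000 RPKM, 36 of 47 and 28 of 39 were members in WT, and 38 of 52 and 45 of 62 in JMJD1B-/- HSPCs. Levels spanned a wide range, from Hist2h2be with a mean over the 4 libraries of 4.10 RPKM to Hist1h4a with 2612 RPKM, and the median member had 1153 RPKM. The classes differed in level. The median member had 234 RPKM among the H1 genes, 803 among the H2B, 1027 among the H3, 2012 among the H2A and 2170 among the H4 genes.

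**Figure D1:**
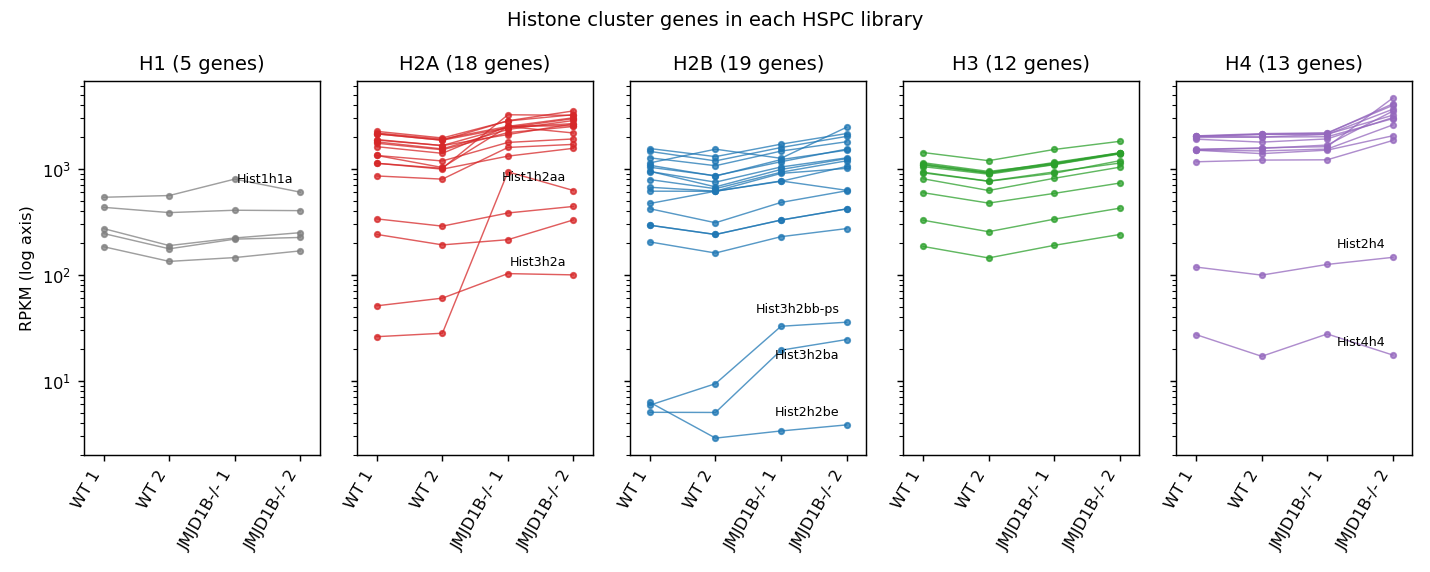
RPKM of each of the 67 histone genes in the 2 WT and 2 JMJD1B-/- libraries, on a log axis, 1 panel per histone class, with the 4 points of a gene joined by a line. Most H2A lines are higher in both JMJD1B-/- libraries, H4 lines are high in replicate 2, and Hist1h2aa climbs from 26.2 and 28.2 RPKM to 939.7 and 626 RPKM.

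As a group the histone genes were higher in JMJD1B-/- HSPCs. The log2 fold change was above 0 in 64 of 67 members, against 47% of all genes tested. Of the members, 11 were called higher, which is 16.4% against 3.81% of all genes tested, and none was called lower, against 6.33%. A gene is described as separated upward where each knockout value exceeded each WT value, and downward in the opposite case. This held upward for 56 members (83.6%, against 20.1% of all genes tested) and downward for none (against 22.7%). The median log2 fold change was 0.44 over the members and -0.02 over all genes tested. With Hist1h2aa left out, the median of the other 66 was also 0.44, and 10 were called.

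The 11 called genes were 7 H2A and 4 H2B genes, and no H1, H3 or H4 gene was among them. This make-up was not stable. With all 4 libraries, median-ratio scaling called 14 H2A and 13 H2B genes. Leaving out a library leaves 1 in its group, so medians are given for those fits. Without JMJD1B-/- replicate 1 the median log2 fold change was 0.63 for H2A, 0.65 for H2B, 0.49 for H3 and 0.72 for H4, against 0.09 over all genes tested. Without JMJD1B-/- replicate 2 it was 0.49, 0.31, 0.17 and 0.06 in that order, against -0.10. After adjustment over all 11863 genes tested, Hist1h2aa was the 1 member that passed (adjusted p = 0.000840 in limma). Of all genes tested 1 (0.00843%) passed upward and 5 (0.0421%) in either direction. No gene passed the adjustment in limma without a trend or in an equal-variance test of each gene. These fits called 11 and 11 members at an unadjusted p under 0.05, against 2.92% and 2.93% of all genes tested called higher. Quantile normalization brought the median of the members to 0.070, against 0.017 over all genes tested, and the number called higher to 7. That method gives every library the same distribution of values, and the members hold most of its top ranks. Whether this took part in the lower median was not tested. Median-ratio scaling gave 27 called higher, against 5.33% of all genes tested. With 1 library left out the median of the members lay between 0.27 (without JMJD1B-/- replicate 2) and 0.62 (without JMJD1B-/- replicate 1).

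**Figure D2:**
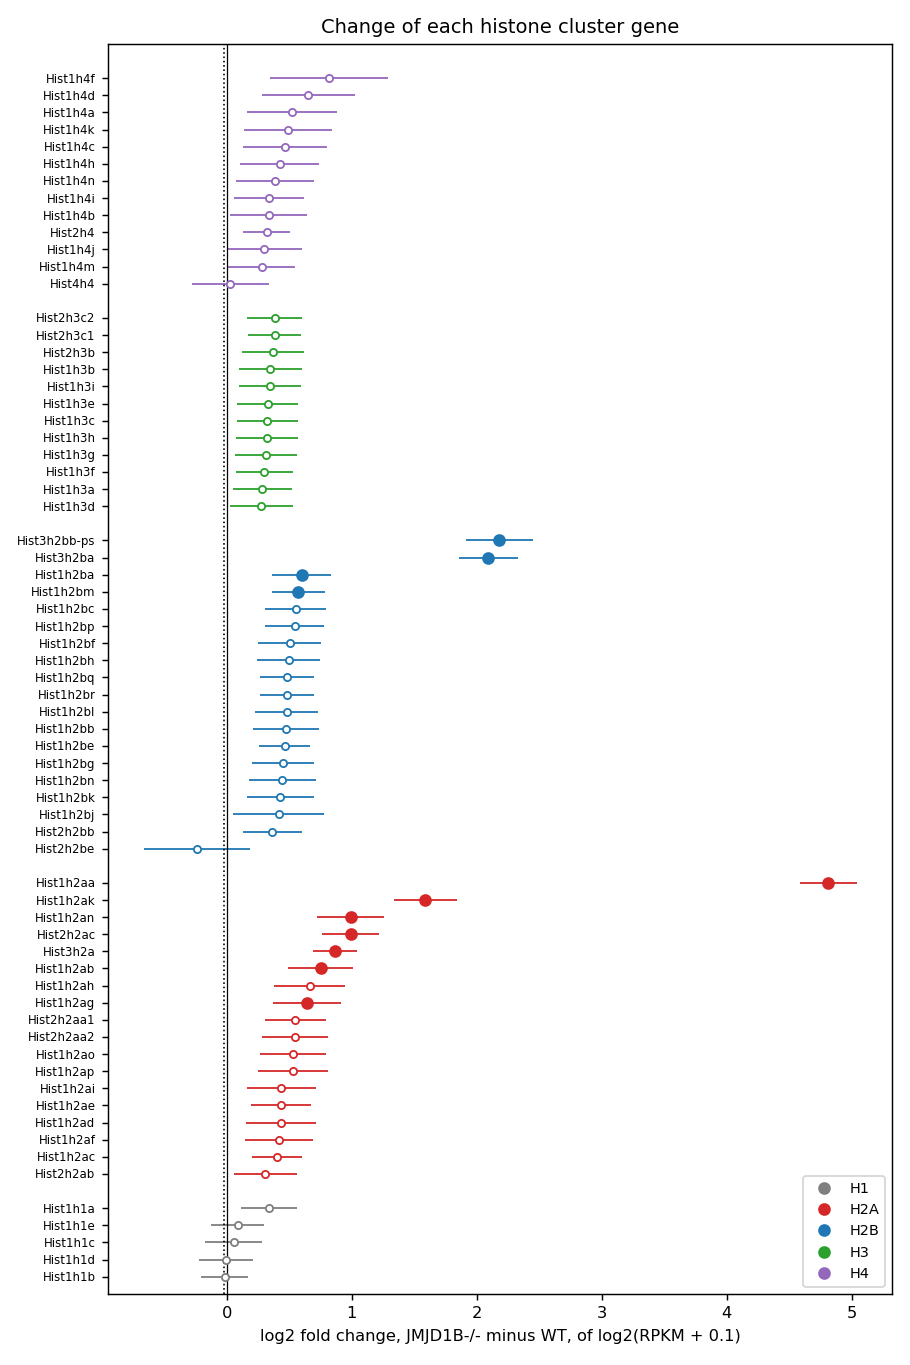
Log2 fold change (JMJD1B-/- minus WT, of log2(RPKM + 0.1)) of the 67 histone genes by class, with the standard error from limma as bars, filled points for the 11 genes with an unadjusted p under 0.05 and a dotted line at the median of all genes tested, -0.02. The filled points are 7 H2A and 4 H2B genes, and Hist1h2aa stands at 4.81.

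H2A genes, which encode the histone that pairs with H2B in the nucleosome, held 7 of the 11 calls. Of 18 members 7 were called higher (38.9%), 17 were separated upward, and the median log2 fold change was 0.55. It lay between 0.46 and 0.63 with 1 library left out. The order of the classes was not stable, since without JMJD1B-/- replicate 1 the medians were 0.63 for H2A, 0.65 for H2B and 0.72 for H4, and with quantile normalization they were 0.13 for H2A and 0.22 for H2B. The summed RPKM of the class was 153% of the WT mean in JMJD1B-/- replicate 1 and 169% in replicate 2, so the class was higher in both libraries. Leaving out Hist1h2aa gave 149% and 167%.

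Hist1h2aa encodes TH2A, a histone known from the testis, and had the largest rise of all genes tested. It had 26.2 and 28.2 RPKM in WT and 939.7 and 626 RPKM in JMJD1B-/- HSPCs. The groups lay far apart, with means of 27.2 ± 1.44 and 783 ± 222 RPKM (SD, n = 2 libraries), 28.8-fold higher in the knockout (log2 fold change 4.81, standard error 0.23). From its RefSeq transcript length of 477 bases these values stand for about 218 and 331 reads in WT and 2739 and 6273 reads in JMJD1B-/- HSPCs. Its head-to-head neighbour Hist1h2ba, which encodes the testis H2B histone TH2B, had 421 and 311 RPKM in WT and 483 and 622 RPKM in the knockout (log2 fold change 0.60, standard error 0.24, unadjusted p = 0.0387 in limma). Of 20 other germ cell marker genes, 4 were in the table, at summed levels of 7.34 and 9.32 RPKM in WT and 6.55 and 11.2 RPKM in JMJD1B-/- HSPCs, and none of the 4 was called.

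Hist1h2ak was the next H2A gene, and the highly expressed member with the largest difference. It had 1131 and 1014 RPKM in WT and 3246 and 3208 RPKM in JMJD1B-/- HSPCs. The knockout libraries differed little from each other and reached 301% of the WT mean (log2 fold change 1.59, standard error 0.25, adjusted p = 0.117 in limma). Hist1h2an, with 1341 and 1033 RPKM in WT and 2513 and 2186 RPKM in the knockout, was at 198% (log2 fold change 0.99, standard error 0.27). Its groups did not overlap, but the call was lost without WT replicate 2.

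Of the Hist2 genes, the H2A gene Hist2h2ac was called. It had 859 and 802 RPKM in WT and 1597 and 1706 RPKM in JMJD1B-/- HSPCs (log2 fold change 0.99, standard error 0.23). The other H2A genes called were Hist1h2ab (0.75), Hist1h2ag (0.64) and Hist3h2a (0.87), all on the log2 scale. The 11 H2A genes that were not called had log2 fold changes from 0.31 to 0.67, and among these the highly expressed Hist1h2ap had 2264 and 1960 RPKM in WT and 2838 and 3252 RPKM in JMJD1B-/- HSPCs. Hist1h2ah had 2143 and 1866 RPKM in WT and 2850 and 3530 RPKM in the knockout (unadjusted p = 0.0508 in limma), and Hist1h2ai had 2185 and 1911 against 2524 and 3041 RPKM. The groups did not overlap in any of these 3 genes.

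The Hist3 cluster is small and lowly expressed, and all 3 of its members were called higher. Hist3h2ba, an H2B gene, had 5.06 and 5.05 RPKM in WT and 19.5 and 24.6 RPKM in JMJD1B-/- HSPCs, 436% of the WT mean (log2 fold change 2.09, standard error 0.24, adjusted p = 0.0560 in limma). Hist3h2bb-ps, listed by RefSeq as a transcribed pseudogene of the H2B class, had 5.92 and 9.43 RPKM in WT and 32.8 and 35.8 RPKM in the knockout, 447% of the WT mean (log2 fold change 2.18, standard error 0.26, adjusted p = 0.0640 in limma). Both had all knockout values above all WT values, as had the H2A gene Hist3h2a with 51.2 and 60.4 RPKM in WT and 103 and 100.2 RPKM in JMJD1B-/- HSPCs. The estimated reads behind the lowest values were 41 and 57 for Hist3h2ba and 48 and 108 for Hist3h2bb-ps in WT, and 55 and 93 in the shallow JMJD1B-/- replicate 1. These 3 genes kept their call under each of the 13 alternative analyses, as did Hist1h2aa, Hist1h2ak and Hist2h2ac. The other 5 of the 11 called members lost it under at least 1.

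H2B genes held the other 4 calls. Of 19 members 4 were called (21.1%), 17 were separated upward, and the median log2 fold change was 0.48. The class summed to 122% of the WT mean in JMJD1B-/- replicate 1 and 158% in replicate 2. Of the 15 Hist1 members of the class 2 were called, Hist1h2ba and Hist1h2bm, and the log2 fold changes of the 15 lay in a narrow band from 0.42 to 0.60. Hist1h2bm had 672 and 617 RPKM in WT and 908 and 1013 RPKM in JMJD1B-/- HSPCs (log2 fold change 0.57, standard error 0.21).

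The most abundant H2B genes were not called. Hist1h2bk had 1558 and 1308 RPKM in WT and 1714 and 2160 RPKM in JMJD1B-/- HSPCs, and Hist1h2bn had 1464 and 1192 against 1594 and 2029 RPKM. In both, the knockout values lay above the WT values. Hist1h2bj had 1141 and 1537 RPKM in WT and 1261 and 2475 RPKM in the knockout, so the groups overlapped and replicate 2 alone stood above them. Hist2h2be was at the low end of the table, with 6.29 and 2.89 RPKM in WT and 3.38 and 3.85 RPKM in JMJD1B-/- HSPCs, and had the lowest log2 fold change of the members, -0.24 (standard error 0.42). Hist1h2bq and Hist1h2br carry identical values in every library, 294 and 241 RPKM in WT and 329.6 and 420.0 RPKM in JMJD1B-/- HSPCs, so they give 1 measurement.

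In RefSeq there were 12 pairs of an H2A and an H2B member next to each other, with no other gene starting between them. Of these, 9 lie head to head. Hist1h2ab with Hist1h2bb does not, and for Hist1h2ac with Hist1h2bc and Hist2h2ac with Hist2h2be it is not known. In 8 of these 12 pairs the H2A gene had the larger log2 fold change, and the medians over the pairs were 0.65 for H2A and 0.48 for H2B. Hist1h2ak stood at 1.59 beside Hist1h2bn at 0.45, Hist1h2an at 0.99 beside Hist1h2bp at 0.54, and Hist2h2ac at 0.99 beside Hist2h2be at -0.24. Hist2h2be had a mean of only 4.10 RPKM, and its log2 fold change lay from -0.78 to 0.31 with 1 library left out. Hist1h2aa beside Hist1h2ba was the pair with the widest gap, 4.21 on the log2 scale. In 4 pairs the H2B gene had the larger value, and the H2A minus H2B difference was -0.15 at its lowest. The difference within a pair was not tested.

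H3 genes encode the histone whose tail carries the lysine 9 methylation that JMJD1B removes. None of the 12 was called with all 4 libraries, while 9 were separated upward. Their log2 fold changes were the most alike of all classes, from 0.28 to 0.38, with a median of 0.33, and the median lay between 0.17 (without JMJD1B-/- replicate 2) and 0.49 (without JMJD1B-/- replicate 1) with 1 library left out. The class summed to 112% of the WT mean in JMJD1B-/- replicate 1 and 140% in replicate 2. Hist1h3b, the most abundant, had 1430 and 1198 RPKM in WT and 1527 and 1822 RPKM in JMJD1B-/- HSPCs. Hist1h3c had 1120 and 928 against 1151 and 1420 RPKM. The WT libraries of Hist1h3d, at 1147 and 948 RPKM, overlapped the knockout libraries at 1123 and 1421 RPKM.

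H4 genes encode the histone whose arginine 3 JMJD1B was studied for, and most of the difference in their summed level lay in 1 library. None of the 13 was called with all 4 libraries, although 12 were separated upward. The median log2 fold change of the class was 0.39, and with quantile normalization it was -0.081. Without JMJD1B-/- replicate 1 it was 0.72, against 0.09 over all genes tested. The class summed to 104% of the WT mean in JMJD1B-/- replicate 1 and to 184% in replicate 2, and the WT libraries differed by under 1%, with replicate 2 at 100.6% of replicate 1. In log2 the median H4 gene was 0.06 above its WT mean in JMJD1B-/- replicate 1 and 0.72 above it in replicate 2. For H2A the same medians were 0.49 and 0.62, so by these medians the JMJD1B-/- libraries were closer to each other in H2A than in H4.

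Hist1h4f showed the widest gap, and is named after its values were seen. It had 1530 and 1584 RPKM in WT, 1623 RPKM in the first knockout library and 4669 RPKM in the other. Replicate 2 was thus 2.88 times replicate 1 (log2 fold change 0.82, standard error 0.47, unadjusted p = 0.123 in limma). The 3 most abundant H4 genes, none of them called, also had their highest value in that library. Hist1h4a had 2039 and 2122 RPKM in WT and 2167 and 4118 RPKM in JMJD1B-/- HSPCs, Hist1h4k had 2052 and 2154 against 2194 and 3978 RPKM, and Hist1h4c had 2036 and 2001 against 2117 and 3661 RPKM. Hist4h4, the only member of its cluster, had 27.4 and 17.1 RPKM in WT and 27.8 and 17.6 RPKM in the knockout, so the ranges of the groups overlapped (log2 fold change 0.03, standard error 0.31).

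**Figure D3:**
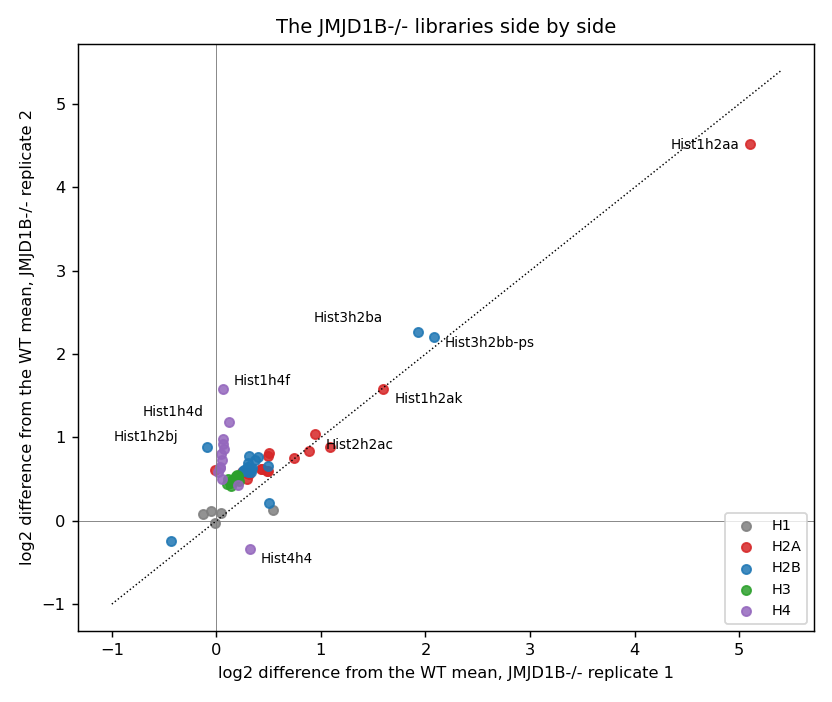
Log2 difference of each of the 67 histone genes from its WT mean in JMJD1B-/- replicate 1 (x axis) and replicate 2 (y axis), coloured by class, with a dotted line where both are equal. H4 genes rise along the y axis near 0 on the x axis, with medians of 0.06 and 0.72, while Hist1h2ak, at 1.60 and 1.58, lies on the dotted line and Hist1h2aa, at 5.11 and 4.52, lies to the right of it.

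H1 genes, which encode the linker histones, gave no call with all 4 libraries, and Hist1h1a was called without JMJD1B-/- replicate 2. Of the 5 genes 1 was separated upward, and the median log2 fold change was 0.06. The median had no stable sign, being -0.15 without WT replicate 2, 0.31 without WT replicate 1 and -0.086 with quantile normalization. Hist1h1a was that gene, with 541 and 561 RPKM in WT and 803 and 604 RPKM in JMJD1B-/- HSPCs (log2 fold change 0.34, standard error 0.22). Hist1h1b had 435 and 388 RPKM in WT and 408 and 404 RPKM in the knockout, Hist1h1c had 274 and 189 against 223 and 251 RPKM, and Hist1h1d had 185 and 134 against 146 and 169 RPKM. In these 3 the knockout values lay within the range of the WT values. The class summed to 115% of the WT mean in JMJD1B-/- replicate 1 and 106% in replicate 2.

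**Figure D4:**
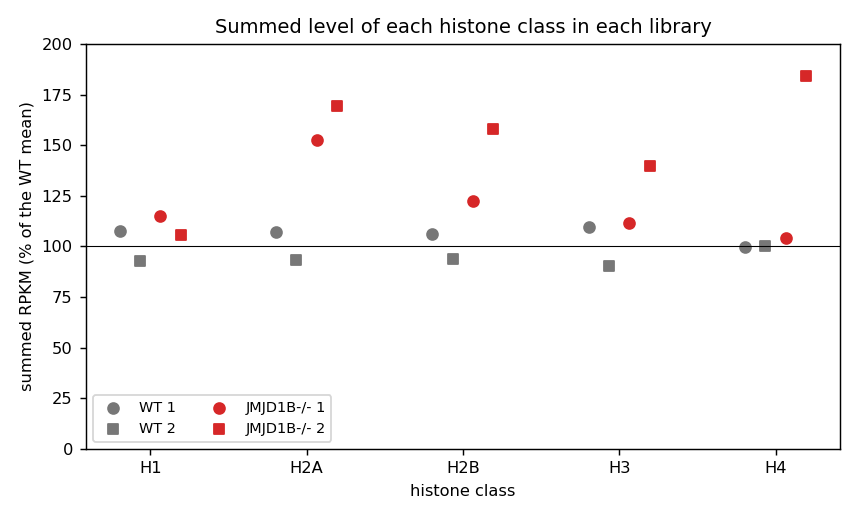
Summed RPKM of each histone class in each library, as a percentage of the mean of the 2 WT libraries, with WT in grey, JMJD1B-/- in red, circles for replicate 1 and squares for replicate 2. H2A is high in both JMJD1B-/- libraries (153% and 169%), H4 in replicate 2 alone (104% and 184%), and H1 in neither (115% and 106%).

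The table gives 7 member names in 2 entries each, and in these the entries parted with genotype or library. The 2 entries of Hist2h2aa1 were within 1 RPKM of each other in WT, at 1340 and 1341 RPKM in replicate 1, and were 345 RPKM apart in JMJD1B-/- replicate 1 and 344 RPKM apart in replicate 2, or 21.5% and 19.6% of the lower entry. The entries of Hist2h2aa2 were 511 and 509 RPKM apart in the knockout, those of Hist1h2ao 311 and 300.1 RPKM, and those of Hist1h2ap 412 and 396 RPKM, while each pair differed by at most 2.91 RPKM in WT. All 4 of these are H2A genes, and their entries differed in both JMJD1B-/- libraries. The H4 gene Hist1h4n behaved otherwise, with entries 889 RPKM (34.0%) apart in JMJD1B-/- replicate 2 and at most 9.20 RPKM apart in the other 3 libraries. The entries of Hist1h2bq and Hist1h2br differed by 8.99% in WT replicate 2 and 8.83% in JMJD1B-/- replicate 2, and by at most 0.237% in the other libraries, which does not follow genotype.

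**Figure D5:**
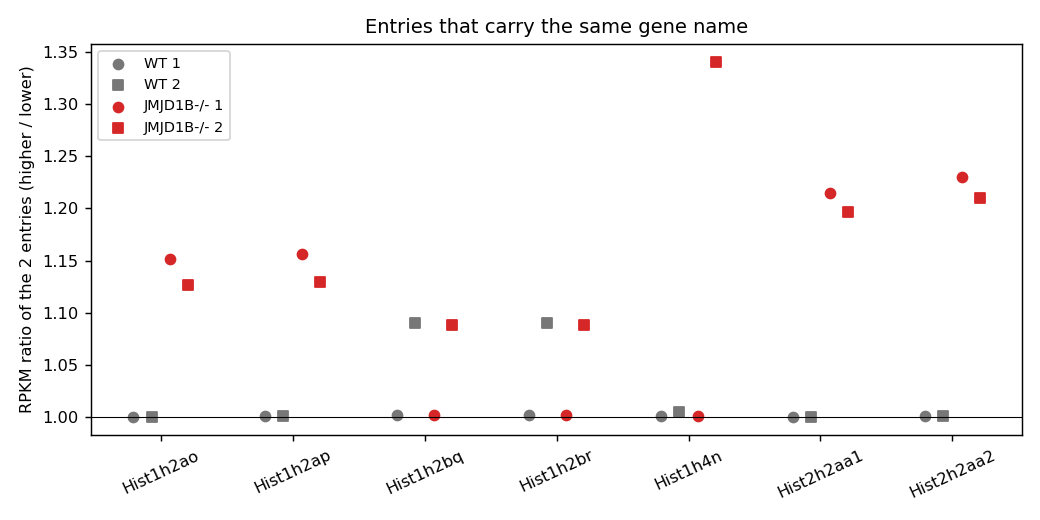
Ratio of the RPKM of the higher to that of the lower of the 2 entries that share a gene name, for 7 histone genes, with WT in grey, JMJD1B-/- in red, circles for replicate 1 and squares for replicate 2. For the 4 H2A genes both red points lie at 1.13 or above and both grey points at 1.00, and for Hist1h4n replicate 2 of JMJD1B-/- alone lies at 1.34.

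Many histone genes of a class are nearly identical in their coding sequence, so reads can be shared between them. How such reads were counted is not given in the sources used here. Among pairs of entries of the same class, 13 of 601 kept a constant ratio over the 4 libraries within 0.02 on the log2 scale, and 0 of 2093 pairs from different classes did. These pairs involved 23 entries, among them Hist2h3c1 with Hist2h3c2, Hist2h2aa1 with Hist2h2aa2, Hist1h2ao with Hist1h2ap and Hist1h4m with Hist1h4n. The values of such members are not independent, and the count of members that moved is a count of names. Whether shared reads take part in the differences was not tested.

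Genes that act on these histones or their mRNAs were read beside the members, and their counts stand against 3.81% of all genes tested called higher and 6.33% called lower. Of 26 genes for transcription, 3' end processing and decay of histone mRNA, none was called in either direction, and the median log2 fold change was 0.08. Of 28 histone chaperones and assembly factors none was called, with a median of 0.10. Of 10 histone variant genes outside the clusters 1 was called, H2afy, which encodes macroH2A1, with 225 and 241 RPKM in WT and 140 and 96.0 RPKM in the knockout (log2 fold change -1.01, standard error 0.22). Of 41 genes of DNA replication and S phase 8 were called higher (19.5%) and none lower, with a median of 0.30. The number called was 1 without WT replicate 1, 5 without WT replicate 2 or JMJD1B-/- replicate 2, and 3 in limma without a trend or with an equal-variance test of each gene. They include Rrm2, a subunit of ribonucleotide reductase, at 37.3 and 54.1 RPKM in WT and 82.1 and 75.4 RPKM in JMJD1B-/- HSPCs, Ccne1, which encodes cyclin E1, and the transcription factor gene E2f2. Their log2 fold changes were 0.81, 1.03 and 0.78 in that order. The median of the members, 0.44, was of the same sign as that of the S phase list, and the part of S phase in it was not tested.

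Markers of other cell types also moved between the genotypes. Their counts stand against 3.81% of all genes tested called higher, 6.33% called lower and 20.1% separated upward. All 7 erythroid markers were separated upward and 6 were called higher, with sums of 198 and 299 RPKM in WT and 590 and 1419 RPKM in the knockout, led by Hba-a1 (log2 fold change 2.26), Alas2 (2.12) and Hbb-b2 (1.98). The sum was highest in JMJD1B-/- replicate 2, the library in which H4 was also highest. Hbb-b1 and Hbb-b2 had nearly the same values in each library, from 51.6 and 53.0 RPKM in WT replicate 1 to 437 and 449 RPKM in JMJD1B-/- replicate 2. They may therefore not be independent measurements. Of 8 granulocyte markers tested 5 were called lower and 2 higher, with sums of 292 and 202 RPKM in WT and 87.2 and 53.9 RPKM in JMJD1B-/- HSPCs, and Mpo at -2.65, Ms4a3 at -2.49, Elane at -2.29 and Prtn3 at -2.11 on the log2 scale (adjusted p = 0.04998 for Prtn3 in limma). The 2 called higher were S100a9 at 2.17 and S100a8 at 0.70, which are named after their values were seen. Of 9 HSPC markers 4 were called lower, among them Flt3 (-1.84), Cd34 (-1.46) and Gata2 (-0.77). Of 7 T and NK cell markers 2 were called higher, Cd3g (3.03) and Cd3e (1.70), and 1 lower, Nkg7 (-1.30), with sums of 23.5 and 31.3 RPKM in WT and 83.2 and 18.0 RPKM in the knockout. Only 1 of 7 B cell markers, Cd79b, was in the table, and it was called lower (-1.43). The part of these cells in the differences of the histone genes was not tested.

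Other RNA known mainly without a poly(A) tail was read as well, because the libraries were made from polyA RNA. None of 9 such genes was called higher and 2 were called lower, Scarna6 (-0.84) and Neat1 (-0.63), with a median log2 fold change of -0.46 and sums of 26138 and 19561 RPKM in WT and 15778 and 18324 RPKM in JMJD1B-/- HSPCs. Neat1 also has an isoform with a poly(A) tail, and a value by gene name does not separate the isoforms. The sums of the WT libraries differed from each other as well, and the part of poly(A) selection in the differences of the histone genes was not tested. Of the 200 other RefSeq genes that lie among the cluster histone genes, 4 were in the table, and 1 of these was called lower, C230035I16Rik (log2 fold change -3.04), with a median of -0.36.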

How the data were processed

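Polyadenylated RNA of bone marrow HSPCs was sequenced in 2 WT and 2 JMJD1B-/- libraries with a TruSeq kit. The deposited table holds RPKM values to which the authors added 1, which was subtracted here. The submitters' processing notes name TopHat2, Novoalign and mm9. The counting program, the annotation and the treatment of reads that map to several places are not given in the sources used here. There are 12024 entries for 11982 names. Where a name had several entries their mean was used (42 names, 7 of them histone genes).

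The 11863 genes whose mean RPKM reached 0.5 entered limma 3.58.1 (R 4.3.3, eBayes with a trend) as log2(RPKM + 0.1), with Benjamini-Hochberg adjustment over all of them. For all its data together the paper states Student's two-tailed comparison of groups, without naming RNA-seq, so an equal-variance test of each gene was run as an alternative. No count test was run, since read counts were not recovered. Depth was estimated from 350 genes with low values that fitted whole reads. Of those with a known length, 23 gave 1 common depth within 0.2%, and any other depth was shared by at most 3. The 3-read floors cover counting error only. Tables and figures were made with Python 3.11.15, pandas 2.3.3, numpy 2.4.6 and matplotlib 3.10.9.

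Genes named by rule were the 3 most abundant members per class, those with an adjusted p under 0.05, the 5 largest and 5 lowest log2 fold changes at a mean RPKM of 1 or more, Hist3 and Hist4 members and members with identical values, and in other lists the 3 largest changes among called genes. Other members named were chosen after their values were seen. The members and lists were chosen with earlier results of these data known. The alternatives varied the pseudocount, the filter, the scaling between libraries, the test and a replicate block, and left out each library. Keeping apart the entries of 1 name was chosen after seeing the data.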

Additional observations from a re-analysis of the deposited data

How the results depend on the processing

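The number of histone genes called higher (11) became 27 when libraries were scaled by median ratios and 7 under quantile normalization, and lay between 6 and 33 when 1 library was left out, where WT replicate 2 gave the lowest and JMJD1B-/- replicate 1 the highest. The number past an adjusted p under 0.05 in limma (1, against 5 of all genes tested) became 3 with a pseudocount of 1 (against 18). It became 0 without a trend and 0 with an equal-variance test of each gene, where no gene tested passed. At an unadjusted p under 0.05 these fits with 0 called 11 and 11 members. In fits without 1 library, which leave 1 library in a group, the number past the adjusted threshold moved, as did that over all genes tested. Without a filter on low values 11 members were called higher. With quantile normalization 19 members were separated upward, against 2967 of all 11863 genes tested, and 5 members downward. The median log2 fold change was then 0.070 over the members and 0.017 over all genes tested. The median of the members thus lay 0.052 above that of all genes tested, against 0.46 in the main fit. By class the median was -0.086 for H1, 0.13 for H2A, 0.22 for H2B, 0.023 for H3 and -0.081 for H4. By cluster it was 0.024 for Hist1 and 0.13 for Hist2. Among the members named by rule, quantile normalization turned the log2 fold change below 0 in Hist1h1c (-0.086), Hist1h2ai (-0.10), Hist1h2ap (-0.032), Hist1h2bj (-0.049), Hist1h2bk (-0.024), Hist1h3b (-0.063), Hist1h3d (-0.058), Hist1h4a (-0.078), Hist1h4c (-0.087) and Hist1h4k (-0.096). Members not named by rule also fell below 0, as the H4 median shows, and are not listed. Median-ratio scaling gave Hist1h1d 0.0069. Leaving out 1 library gave medians of 0.27 to 0.62 for the members, -0.15 to 0.31 for H1, 0.46 to 0.63 for H2A, 0.31 to 0.65 for H2B, 0.17 to 0.49 for H3, 0.059 to 0.72 for H4 (lowest without JMJD1B-/- replicate 2, highest without replicate 1) and 0.20 to 0.56 for Hist2, and up to 5 members separated downward (without WT replicate 2, otherwise 0). Among the members named by rule it turned the sign in Hist1h1b, Hist1h1c, Hist1h1d, Hist1h2bj, Hist2h2be and Hist4h4. Their log2 fold changes lay from -0.10 to 0.067, from -0.21 to 0.32, from -0.23 to 0.22, from -0.071 to 0.90, from -0.78 to 0.31 and from -0.31 to 0.37 in that order. Other members were not listed for a turned sign. Called higher and lower genes of all tested were 452 and 751, 632 and 747 under scaling by median ratios, and 673 and 712 under quantile normalization, and leaving out JMJD1B-/- replicate 1 or 2 moved the median of all genes to 0.09 or -0.10.

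Called genes of the other lists also moved. With median-ratio scaling 1 gene of histone mRNA processing, 1 chaperone, 4 variants and 1 RNA without a poly(A) tail were called, and with quantile normalization 3, 4, 2 and 4 of these and 0 B cell markers. Without a trend 3 S phase genes, 1 HSPC marker and 0 RNAs without a poly(A) tail were called. The equal-variance test called 1 processing gene, 1 chaperone, 3 S phase genes, 0 variants, 0 HSPC, 0 erythroid, 2 granulocyte, 0 B cell and 1 T and NK cell marker, 0 RNAs without a poly(A) tail and 0 genes that lie among the histone genes. A pseudocount of 0.01 gave 1 RNA without a poly(A) tail and 0 genes among the histone genes, and a mean RPKM of 1 or more gave 1 such RNA. Without 1 library the numbers were 0 to 4 for processing, 0 to 5 for chaperones, 1 to 9 for S phase, 1 to 4 for variants, 1 to 6 for HSPC, 0 to 1 for B cell, 2 to 7 for T and NK cell and 0 to 1 for germ cell markers, 0 to 3 for RNA without a poly(A) tail and 0 to 2 for genes among the histone genes. In fits without 1 library a group holds 1 library, and the number of all genes called moved as well. The cause of these shifts was not tested.

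Libraries of the 2 genotypes share the numbers 1 and 2 in their labels. Deviations of same-numbered libraries had a correlation of -0.054 over genes, with 2 pairs, so the samples share a number and nothing more is known of a pairing. The replicate block gave 4 histone genes past the adjusted threshold, against 256 of all genes tested. It called 11 members higher, against 4.81% of all genes tested. These 11 were 5 H2A and 6 H2B genes in place of 7 and 4. Hist1h2ab, Hist1h2ag and Hist1h2bm were lost and Hist1h2be, Hist1h2bq and Hist1h2br gained. The block also called 1 processing gene, 2 chaperones, 0 B cell and 5 T and NK cell markers. Keeping entries of 1 name apart, chosen after seeing the data, gave 15 of 74 entries called higher, against 3.87% of all entries tested. It gave 1 past the adjusted threshold, against 5 of all entries tested. With 2 libraries per genotype, an exact permutation test could not reach a small p. The least deeply sequenced library was JMJD1B-/- replicate 1.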
